A study of Hylyphantes graminicola with 5 samples.

Results

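The brain of *Hylyphantes graminicola*, a small web-building spider, expressed 40 genes that the study lists as neurotransmitter receptors, out of 19195 genes counted. The 40 were taken as the rows of the study's receptor heat map, which prints each gene identifier beside a receptor name, and all 40 identifiers were present in the count files. By these names, 11 are dopamine receptors, 10 octopamine or tyramine receptors, 7 serotonin receptors, 5 muscarinic acetylcholine receptors, 4 adrenergic-like receptors and 3 GABA-B receptors. All are names of G protein-coupled receptors for small transmitters, and none is the name of a neuropeptide receptor or of a transmitter-gated channel. The study named genes by their best match to proteins of other species, and ligands were not tested in these data.

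The material was brain tissue of adults of mixed age, with 35 to 40 brains pooled in each library, 3 libraries from females and 2 from males, with no treatment named. Cells were captured in droplets and the 3′ ends of their messenger RNAs were tagged with unique molecular identifiers (UMIs), so that each captured molecule was counted once and no scaling by gene length was needed. The libraries held 12269605 to 35943668 UMIs in 40233 barcodes, of which 31145 passed the filters on depth, gene number and mitochondrial share (3296 to 8139 per library). A cell's class came from the study's numbered clusters, which were carried from 1998 annotated cells of female replicate 3 to all other cells with the 40 receptor genes left out. This gave 28705 neurons, 741 glia, 1178 hemocytes (blood cells) and 237 fat body cells, and 284 cells of 2 clusters in none of these classes. Female replicate 2 and male replicate 2 stood apart, with median mitochondrial shares of 28.9% and 26.4% against 14.1% to 18.5% in the others, and 88 barcodes occurred in more than 1 library. The defining markers moody, Gat and Eaat2 were highest in glia, and Hml_1, Hml_2 and Hml_3 in hemocytes, by their class means, and 5 of 6 fat body markers in fat body (FASN1 was highest in neurons). Glial cluster 34 (149 cells) had elav at 1061 CPM (UMIs of the gene per 1000000 UMIs) and Syt1 at 8047 CPM, against means of 1131 and 9137 CPM in neurons, and rests on 2 annotated cells.

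Receptors of this superfamily sit in the cell membrane, bind a transmitter released by another cell and switch on a G protein inside. In insects, Dop1R1, Octbeta and 5-HT7 receptors raise cyclic AMP, while Dop2R and mAChR-B receptors lower it, and Oamb and mAChR-A receptors mobilise calcium. They set the excitability and plasticity of neurons over longer times than channels do, and in flies several of them are needed for learning. A working GABA-B receptor of flies and vertebrates is a pair of the R1 subunit, which binds GABA, and the R2 subunit, which couples to the G protein. Octopamine and tyramine are used by invertebrates in roles that noradrenaline has in vertebrates, and receptors of the adrenergic type also occur in several invertebrate groups.

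A few receptor genes made up most of the receptor messages of neurons, and most of the 40 were rare. Over neurons the 40 genes together had 880, 630 and 921 CPM in female replicates 1, 2 and 3 and 730 and 666 CPM in male replicates 1 and 2. Female replicate 2, the library with the highest mitochondrial share, was the lowest. GABAB-R1 alone made 25.2% of this sum and the 5 highest genes 64.9%. The median gene stood at 4.28 CPM, 14 genes were above 10 CPM, 5 above 50 CPM and 11 below 1 CPM. Bulk sums of this kind do not tell fewer cells with a message from less message per cell.

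Among the GABA-B receptor genes, GABAB-R1 (evm.TU.CTG-1545.20) had 208, 207 and 165 CPM in neurons of female replicates 1 to 3 and 202 and 182 CPM in male replicates 1 and 2, a mean of 193 ± 18.7 CPM (SD, n = 5 libraries). It was the highest of the 40 in neurons of every library and varied little among them. GABAB-R2 (evm.TU.CTG-161.1), its partner subunit in other animals, had 16.3, 7.44 and 19.1 CPM in neurons of the females and 13.9 and 11.2 CPM in those of the males. GABAB-R3 (evm.TU.CTG-1295.1), named after a further subunit gene of insects, averaged 10.2 ± 3.29 CPM in neurons. Messages of the R1 gene thus outnumbered those of the other GABA-B genes, with 89.0% of the family's 216 CPM.

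The muscarinic genes followed with 198 ± 40.6 CPM in neurons. mAChR-A_S2 (evm.TU.CTG-1504.54) had 120, 85.9 and 71.3 CPM in the female and 78.2 and 72.9 CPM in the male libraries. mAChR-B (evm.TU.CTG-627.10), the inhibitory type in insects, had 58.0, 20.9 and 81.4 CPM in female neurons and 48.4 and 35.3 CPM in male neurons, a wide spread with female replicate 2 lowest and female replicate 3 highest. mAChR-A_S1 (evm.TU.CTG-1504.18) had 44.5, 35.5 and 51.7 CPM in the females and 34.1 and 32.1 CPM in the males. mAChR-A_S3 (evm.TU.CTG-408.22) had 30.2, 13.2 and 23.5 CPM in the females and 25.4 and 29.4 CPM in the males. All of the mAChR-A and mAChR-B genes were therefore detected in neurons of each library, whereas mAChR-C had 0.168 ± 0.075 CPM from 20 UMIs.

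The octopamine and tyramine receptor genes summed to 163 ± 64.0 CPM in neurons, and 2 of the 10 made 86.3% of it. Octbeta3R (evm.TU.CTG-935.7), of the cyclic AMP raising type, had 94.9, 68.6 and 80.1 CPM in the females and 74.3 and 66.9 CPM in the males. Octalpha2R_S2 (evm.TU.CTG-98.26) had 48.6, 28.4 and 158 CPM in female replicates 1, 2 and 3 and 47.0 and 34.5 CPM in male replicates 1 and 2. Female replicate 3 was far above the other 4, whose mean was 39.6 ± 9.77 CPM. The presynaptic gene brp also stood at 485 CPM in neurons of that library, against 62.9 to 165 CPM in the others. What part depth or handling of that library had in this was not tested. Of the other 8, OAR_S2 averaged 10.6 CPM, OCTB2 4.67 CPM and Oamb_S3 3.18 CPM, and the 3 lowest, OctTyrR, Oamb_S2 and Oamb_S1, had 30, 31 and 5 UMIs in all neurons.

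For dopamine, DopEcR (evm.TU.CTG-691.1), which in flies responds to dopamine and to the steroid ecdysone, held 75.6% of the family's 103 CPM. It had 84.1, 82.0 and 86.6 CPM in neurons of the females and 66.7 and 71.6 CPM in those of the males. The 8 Dop2R genes, all named after the inhibitory D2-like receptor, ranged between 0.199 CPM (Dop2R_S4) and 7.10 CPM (Dop2R_S7). Dop1R1, the D1-like receptor used in fly learning, averaged 4.64 ± 2.16 CPM and Dop1R2 0.059 CPM, from 9 UMIs.

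The serotonin genes summed to 54.2 ± 14 CPM in neurons. 5HTR_S3 (evm.TU.CTG-974.5) had 22.2, 19.8 and 33.5 CPM in the female and 23.4 and 23.6 CPM in the male libraries, again highest in female replicate 3. 5HTR_S4 (evm.TU.CTG-977.22) had 25.4, 10.3 and 25.1 CPM in the females and 20.4 and 24.4 CPM in the males. The adrenergic-like genes ADA1A_S2 and ADA1A_S1 averaged 16.1 and 6.48 CPM. In order of level, the neighbours mAChR-A_S2, DopEcR, Octbeta3R and Octalpha2R_S2 in neurons lay within each other's spread over libraries, as did 5HTR_S3, mAChR-A_S3 and 5HTR_S4.

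**Figure D1:**
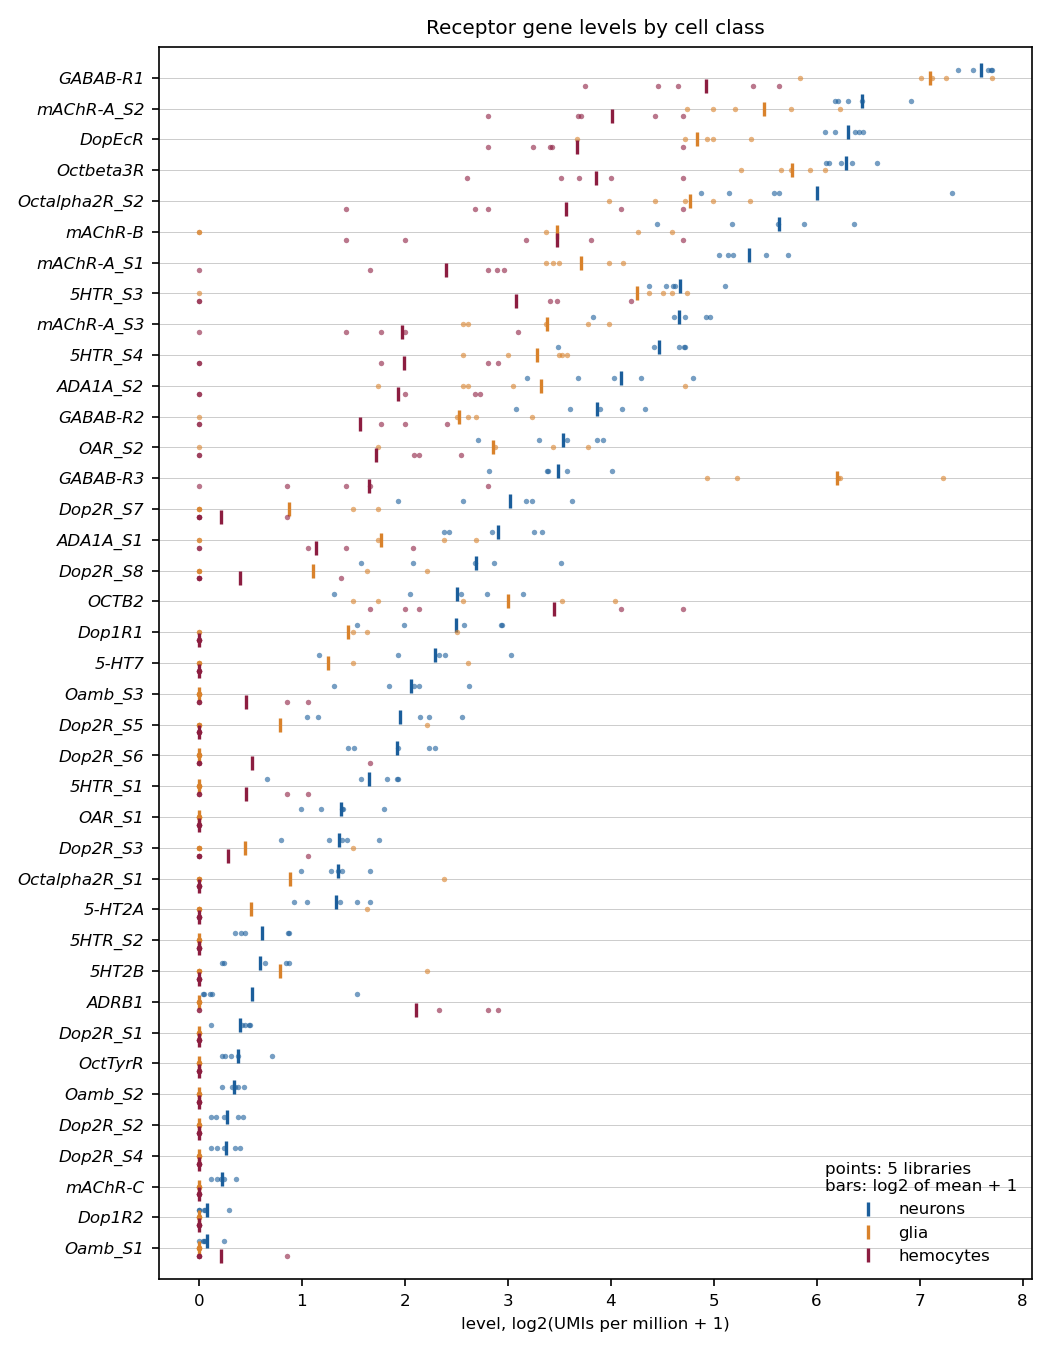
Level of 39 of the receptor genes, as log2(CPM + 1), in neurons (upper row of points for each gene), glia (middle) and hemocytes (lower). Points are the 5 libraries and bars the log2 of the mean CPM plus 1. Neurons lie to the right for most genes, with GABAB-R1 highest at 193 CPM, while GABAB-R3 lies to the right in glia.

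Most receptor genes had their highest level in neurons. Summed over the 40, neurons had 765 ± 129 CPM, glia 462 ± 88.9 CPM and hemocytes 134 ± 36.7 CPM (n = 5 libraries each). Neurons had the highest mean of the 4 classes for 35 of the 40 genes. The share of all genes highest in neurons was not taken. No UMI was seen for 16 genes in hemocytes and for 14 in glia. Neuron sums held at least 11042621 UMIs a library, against at most 549890 in glia and 1241456 in hemocytes. Rare genes can therefore have no UMI outside neurons. Of the 38 genes with enough UMIs, 32 were higher in neurons than in hemocytes in every pair of libraries, 84.2% of them, where 38.3% of all genes were. Of these 32, 15 had no UMI in hemocytes of any library, where 3 UMIs correspond to 2.42 to 37.5 CPM, so that any level in every neuron library placed them above. Among the 14 genes with at least 10 UMIs in hemocytes, 11 were higher in neurons without overlap, with 39.9% of all such genes. None was lower without overlap, against 4.43% of all genes. Against glia, 16 of 38 genes were higher in neurons without overlap, with 20.4% of all genes, but 12 of the 16 had no UMI in glia, where 3 UMIs correspond to 5.46 to 15.4 CPM. The 4 with glial UMIs were mAChR-A_S1, Octbeta3R, DopEcR and Dop2R_S7. Among the 16 genes with at least 10 UMIs in glia, 3 were higher in neurons, 18.8%, near the 16.6% of all such genes. GABAB-R3 alone was lower in neurons than in glia without overlap, with 4.54% of all genes. The classes come from clusters of the same cells, so these counts are descriptions.

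Droplets can take up free RNA of other cells, and the genes brp, nSyb, elav and Syt1, which mark neurons, were used as its yardstick. Neurons placed in another class and doublets would raise these genes too, and the sources were not told apart. Among glial clusters Syt1 ran between 577 CPM in cluster 41 and 8047 CPM in cluster 34. Their levels in glia were 36.3% to 59.0% of those in neurons, and 23.5% to 50.6% with cluster 34 left out. In hemocytes they were 17.9% to 30.1% and in fat body 21.8% to 27%. The 40 receptor genes together reached 60.4% of the neuron level in glia and 17.5% in hemocytes, near these values. Among genes with at least 10 UMIs in the class, 3 of 14 in hemocytes were above the range of the neuron markers (ADRB1, OCTB2 and, by a small margin, 5HTR_S3 at 30.3%). In glia 6 of 16 were, and without cluster 34 these were 4 of 13, namely GABAB-R3, GABAB-R1, Octbeta3R and OCTB2. The share of all genes above these ranges was not taken, so the counts do not set receptor genes apart from other genes.

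GABAB-R3 was the gene of the 40 with a clearly higher level in glia than in neurons. It had 15.1, 6.04 and 9.39 CPM in neurons of female replicates 1, 2 and 3 and 11 and 9.48 CPM in neurons of male replicates 1 and 2, against 149, 73.9 and 72.7 CPM in glia of the same females and 36.4 and 29.6 CPM in glia of the males. The lowest glia library was above the highest neuron library, and leaving out cluster 34 gave glia a mean of 79.6 ± 51.5 CPM. Within glia the message lay in cluster 28, the cells with Gat at 5085 CPM, Eaat2 at 5171 CPM and moody at 1436 CPM, genes for transporters of GABA and glutamate and for a receptor of the blood-brain barrier of flies. There it had 267, 97.0 and 275 CPM in the females and 86.0 and 112 CPM in the males, with a UMI in 28.9% of 239 cells. Cluster 21, which has SPARC_1 at 265 CPM, had 13.7 ± 14 CPM. When each cell was thinned to 2000 UMIs, 1.68% of neurons had a GABAB-R3 UMI (exact 95% interval 1.5% to 1.87%), 13% of glia (9.80% to 16.9%) and 0.15% of hemocytes, and the median depths before thinning were 2700, 2014 and 2247 UMIs. The intervals pool cells of all libraries and do not cover the spread between libraries. GABAB-R1 was also present in cluster 28, at 164 ± 57.9 CPM, close to its level in neurons.

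OCTB2 (evm.TU.CTG-725.3), an octopamine receptor of the beta type, had its lowest mean in neurons, with 4.67 ± 2.48 CPM, against 7.01 ± 5.84 CPM in glia, 9.93 ± 10.2 CPM in hemocytes and 12.1 CPM in fat body (4 libraries). In neurons it had 5.98, 1.49 and 7.90 CPM in the females and 4.84 and 3.15 CPM in the males, against 25, 3.39 and 16.1 CPM in female and 3.00 and 2.17 CPM in male hemocytes. The groups overlapped, and the hemocyte value of female replicate 1 rests on few cells, 36 in all. In hemocyte cluster 16, the Hml_1 and Hml_2 cells, 16 of the 21 OCTB2 UMIs came from female replicate 3.

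ADRB1 (evm.TU.CTG-131.17), named after a beta-adrenergic receptor, was rare everywhere, with 28 UMIs in neurons, 0 in glia and 13 in hemocytes. In neurons it had 0.0906, 1.90 and 0.0317 CPM in female replicates 1, 2 and 3 and 0.0334 and 0.0797 CPM in male replicates 1 and 2, against 0, 0 and 4.03 CPM and 6.0 and 6.50 CPM in hemocytes of the same libraries. Of the neuron UMIs, 23 came from female replicate 2, 1 in each of 23 cells spread over 13 clusters, while hemocytes of that library had none in 589938 UMIs, which allows a level up to 5.09 CPM. Of the 13 hemocyte UMIs, 9 lay in cluster 25 (Hml_3 at 3770 CPM) and 3 in cluster 36. The pattern thus rests on 3 libraries for hemocytes and on 1 for neurons. The remaining genes with their highest mean outside neurons were 5HT2B, by 2 glial UMIs in male replicate 1 (3.64 CPM there and 0 CPM in the other glia, against 0.165 to 0.835 CPM in neurons), and Oamb_S1, by 1 hemocyte UMI in female replicate 3. Both are at the limit of detection.

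Of 8 genes that act after these receptors, 6 had their highest mean in neurons and 2 in glia. RGS6, which shortens G protein signals, had 823 ± 98.6 CPM in neurons, against 335 ± 184 CPM in glia and 236 ± 61.9 CPM in hemocytes, and rut, the adenylate cyclase of fly learning, had 154 ± 23.3 CPM in neurons against 70.8 ± 32.7 CPM in glia and 30.9 ± 5.62 CPM in hemocytes. PLCB1_S1, a phospholipase of the calcium branch, had 41.4 ± 13.4 CPM in neurons against 76.5 ± 27.4 CPM in glia, and Arr2, an arrestin, 41.2 ± 13.9 CPM against 75.6 ± 57.9 CPM. The glial and hemocyte levels of RGS6 (40.7% and 28.7% of neurons) and rut (46% and 20.1%) lay within the range of the neuron markers, while those of PLCB1_S1 and Arr2 in glia lay above it. The genes fixed for transmitter synthesis were low, with Gad1 (GABA synthesis) at 35.7 ± 6.05 CPM, VAChT (vesicular acetylcholine transport) at 25.6 ± 10.4 CPM, Tdc2 (tyramine and octopamine synthesis) at 7.07 ± 3.47 CPM and Th (dopamine synthesis) at 5.38 ± 3.46 CPM over neurons.

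Single neurons showed few of these messages at the depth reached. With cells thinned to 2000 UMIs, neurons had UMIs of 1.54, 1.08 and 1.63 of the 40 genes on average in female replicates 1, 2 and 3 and of 1.32 and 1.18 genes in male replicates 1 and 2. The mean of libraries was 1.35 ± 0.23 genes, against 0.873 ± 0.168 in glia, 0.23 ± 0.048 in hemocytes (4 libraries with enough cells) and 0.45 in fat body (2 libraries). No receptor UMI was seen in 26.5% ± 5.92 of neurons, 45.9% ± 8.53 of glia and 83.3% ± 3.92 of hemocytes. Neuron values of all libraries were above all those of the other classes. Without thinning, neurons had 2.14 genes on average and at most 19. Thinned to 1000 UMIs, the neuron mean was 0.743, so the number rises with depth. Free RNA was not subtracted, so some of these UMIs may come from other cells.

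**Figure D2:**
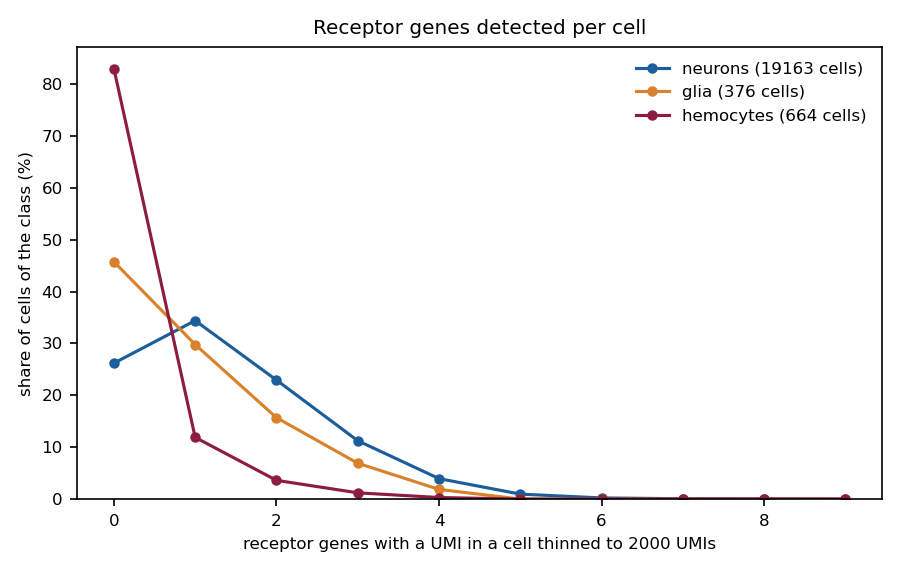
Share of cells, in percent, by the number of the 40 receptor genes with a UMI in a cell thinned to 2000 UMIs, for neurons (19163 cells), glia (376) and hemocytes (664), all libraries pooled. The most frequent count is 1 gene in neurons (34.4%) and 0 genes in glia (45.7%) and hemocytes (83.0%).

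Within neurons, receptor genes differed in how widely they were detected over clusters. Of the 31 neuron clusters, 30 had at least 5 annotated cells, and 25 receptor genes had at least 200 neuron UMIs. Of these genes, 9 reached 3 UMIs in all 30 clusters. They were the 9 with the most neuron UMIs, 2732 or more each, so this count cannot be told apart from depth. The share of all genes that reached it was not taken. The mean level of 4 of these 9, GABAB-R1, mAChR-A_S1, mAChR-A_S2 and DopEcR, was above the highest hemocyte library in all 30 clusters, whereas that of 5HTR_S3 was in 19 and that of mAChR-B in 21. The index tau, which is 0 for a gene at 1 level in all clusters and 1 for a gene of a single cluster, ran between 0.47 for GABAB-R1 and 0.91 for GABAB-R3, with a median of 0.68. The widest after GABAB-R1 were mAChR-A_S2 and DopEcR, both 0.55, and the narrowest beside GABAB-R3 were Dop2R_S8 (0.91) and Dop2R_S5 (0.87). These last 2 rest on 683 and 347 neuron UMIs, with their highest means in cluster 30, of 103 cells. Tau was not taken over all genes or at equal depth. The sum over the 40 genes was highest in cluster 6, at 1288 ± 214 CPM (1293 cells), and lowest in cluster 38, at 258 ± 66.4 CPM (85 cells). Cluster numbers were regained for 76.3% of held-out annotated cells and classes for 99.3%, all within female replicate 3, so values of single clusters are less certain than those of classes.

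In 5 combinations a receptor gene was more than 1 on the log2 scale above all other neurons in every library, and 4 of them are described here. They are 0.667% of the 750 combinations of the 25 genes with the 30 clusters, where 0.237% of the combinations of all 10697 genes with at least 200 neuron UMIs met the same limit. GABAB-R3 in cluster 18 (438 cells) had 124, 72.7 and 67.7 CPM in the females and 66.1 and 72.3 CPM in the males, against 4.72 to 11.6 CPM in the other neurons. mAChR-B in the same cluster had 254, 107 and 356 CPM in the females and 186 and 134 CPM in the males, against 19.2 to 75.1 CPM in the other neurons. Cluster 18 was thus above the other neurons for a GABA-B and a muscarinic gene together, by 3.15 ± 0.37 and 2.20 ± 0.16 on the log2 scale.

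Cluster 6 was raised for mAChR-A_S1, with 104, 112 and 134 CPM in the females and 105 and 75.1 CPM in the males, against 30.4 to 47.6 CPM in the other neurons. Cluster 6 also had the highest mean of mAChR-A_S2, DopEcR, mAChR-A_S3, ADA1A_S2, ADA1A_S1 and GABAB-R2, so its large sum was shared by several families. Cluster 20 (293 cells), which held 31.6% of all neurons with a Gad1 UMI, was raised for Dop1R1, with 57.3, 7.91 and 24.5 CPM in the females and 12.8 and 17.7 CPM in the males, against 1.84 to 6.33 CPM in the other neurons. This last rests on 34 UMIs. A mitochondrial limit of 20% no longer raised Dop1R1 in cluster 20 or mAChR-A_S1 in cluster 6 in every library, and a vote of the 5 nearest annotated cells did not raise Dop1R1 in cluster 20.

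Small clusters had other high means that were not raised in every library. Cluster 30 (103 cells) had the highest mean of GABAB-R3 (111 ± 89.7 CPM), Dop2R_S8 (46.0 ± 33.5 CPM), Dop2R_S5 (18.7 ± 18.8 CPM) and 5-HT7 (16.4 ± 24.2 CPM). Cluster 39 (63 cells) had that of 5HTR_S3 (128 ± 106 CPM) and Octalpha2R_S2 (148 ± 157 CPM). The spread between libraries was near or above the mean for most of these, so their order is uncertain.

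**Figure D3:**
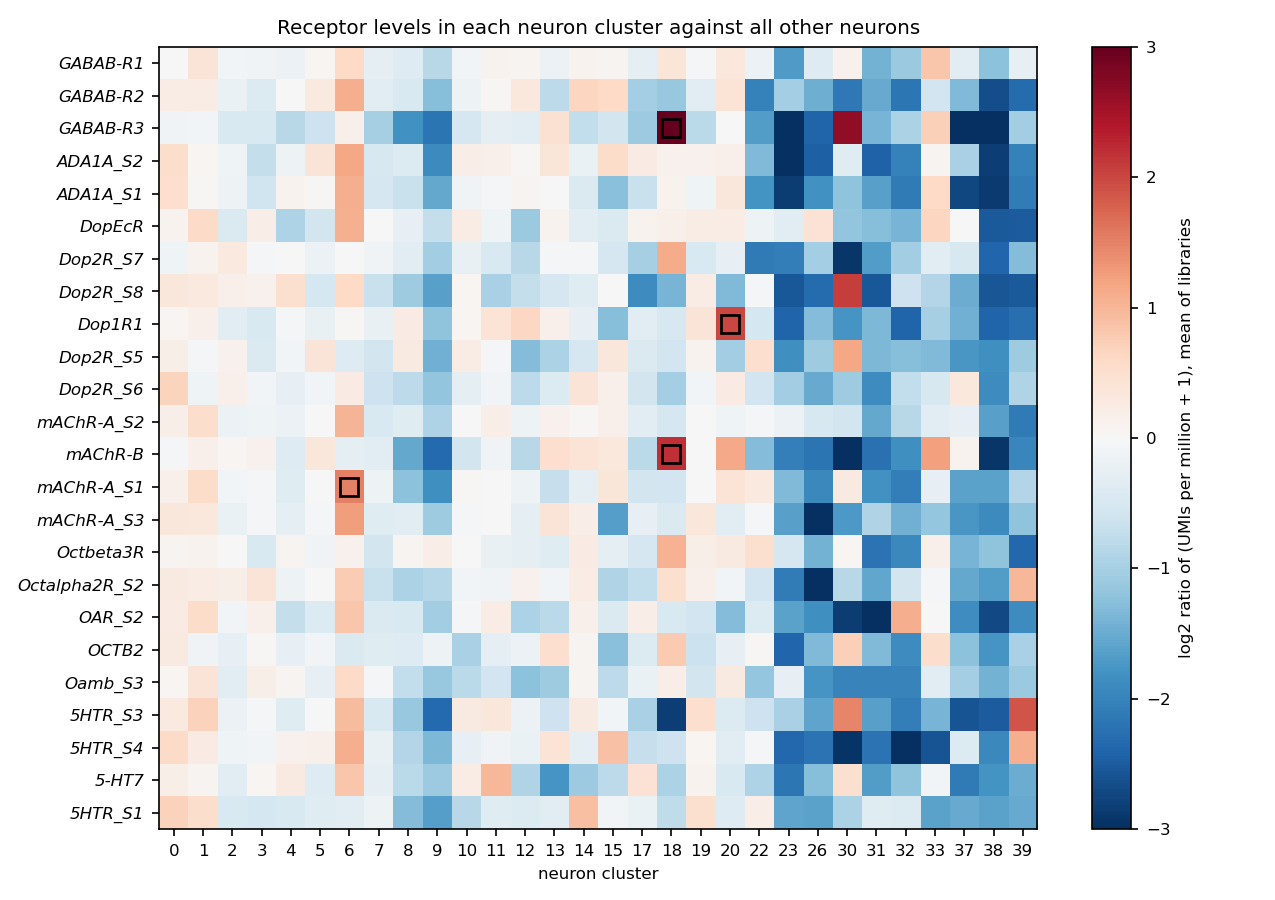
Log2 ratio of the level (CPM + 1) in each of 30 neuron clusters to that in all other neurons, mean of libraries, for 24 of the receptor genes with at least 200 neuron UMIs. Red is higher and blue lower in the cluster, colours end at 3 and -3, and black squares mark 4 combinations above 1 in every library, in clusters 6, 18 and 20.

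Receptor genes were detected together in a neuron slightly more often than independence gives. For 300 pairs of the 25 genes found in at least 200 neurons, the neurons with UMIs of both genes were set against the number expected within each library and 10 classes of depth. The median log2 ratio was 0.19, and 0.13 when the cluster was also held constant. In all 5 libraries 104 pairs (34.7%) were above the expected number, where 15.8% of all pairs of the 10566 genes found in at least 200 neurons were, and none was below it in all, where 1.42% of those pairs were. The median log2 ratio of all those pairs was 0.04. Genes were not matched on level, and depth left within the classes of depth was not tested. Pairs within a receptor family had a median of 0.21 (43 pairs) and other pairs 0.19 (257 pairs).

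GABAB-R3 with mAChR-B was the most even of the high pairs. It had log2 ratios of 1.08, 1.03 and 0.66 in female replicates 1, 2 and 3 and of 0.77 and 0.94 in male replicates 1 and 2, with 297 neurons observed and 168.8 expected. Both genes are raised in cluster 18, and within clusters the ratio was 0.28 ± 0.22. GABAB-R3 with OCTB2 had 0.85 ± 0.31 (49 neurons against 28). The highest mean was that of Dop2R_S5 with Dop2R_S8, at 1.26 ± 0.99 (47 neurons against 13), above 0 in 4 of 5 libraries.

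Dop2R_S5 and Dop2R_S6, which are neighbouring gene models on 1 contig, had 0.95 ± 0.89, from 18 neurons against 4.99 expected. Reads of neighbouring or near-identical copies can be split between models, so this pair is uncertain. The neighbours ADA1A_S1 and ADA1A_S2 had 0.33 ± 0.54 (82 neurons against 55.8), which became 0.18 without female replicate 1, 0.50 without female replicate 2 and 0.20 within clusters or with a mitochondrial limit of 20%, and the neighbours Oamb_S1 and Oamb_S2 were never seen in 1 neuron, with 0.0074 neurons expected. The partners GABAB-R1 and GABAB-R2 were together in 881 neurons against 793 expected, a log2 ratio of 0.13 ± 0.06, below the median of all 300 pairs and 0.06 with a mitochondrial limit of 20%. GABAB-R1 was found in 11761 neurons and GABAB-R2 in 1429. With 793 of these expected, the ratio could rise less than in pairs of rarer genes, which limits the comparison with the median. Among the pairs with the lowest means, 5HTR_S3 with Dop2R_S5 had -0.78 ± 1.31. Its summed count was near expectation (42 neurons against 39.9), and its log2 ratio was above 0 in 2 of 5 libraries.

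**Figure D4:**
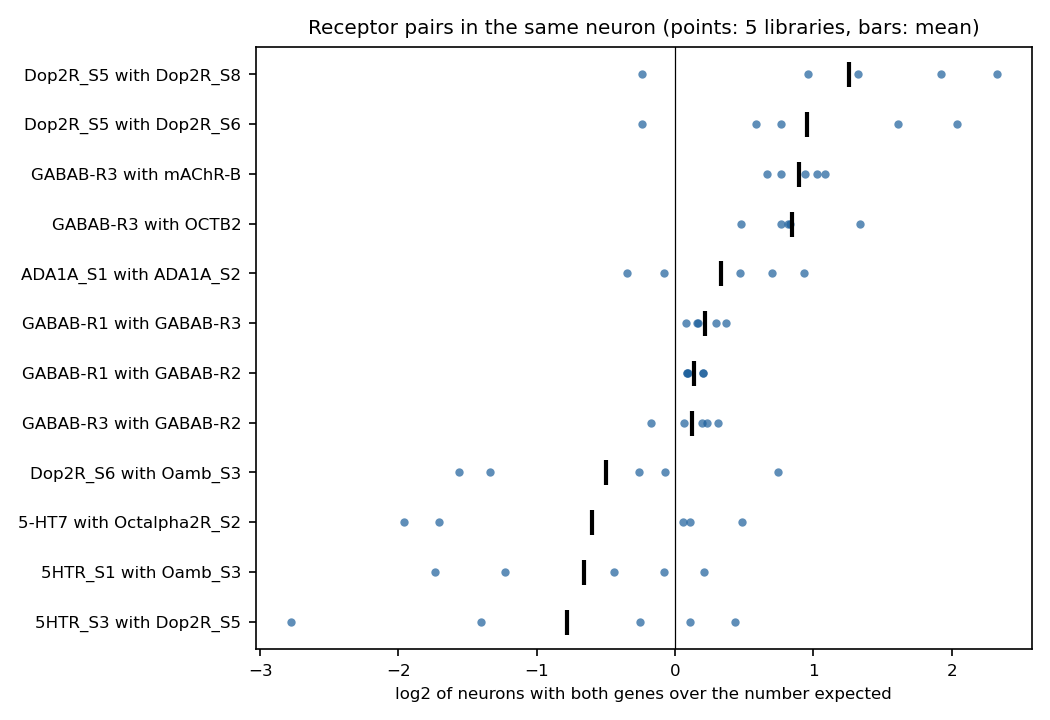
Log2 ratio of neurons with UMIs of both genes to the number expected within library and depth class, for 4 of the highest, 4 of the lowest and 4 preset pairs of receptor genes. Points are the 5 libraries and bars their mean. GABAB-R3 with mAChR-B lies between 0.66 and 1.08 in all libraries, and the 4 low pairs have libraries on both sides of 0.

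Receptor levels were also compared between neurons grouped by a transmitter gene. Neurons with a UMI of a transmitter gene were compared with neurons without one, 3 for each, matched on total UMIs in the same library, by edgeR's quasi-likelihood test over all genes with the library as a block and Benjamini-Hochberg adjustment. The 4 comparisons draw on overlapping neurons. Of the Gad1+ neurons, 83 (11.3%) also had a VAChT UMI and 71 (9.70%) a Th UMI.

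A Gad1 UMI was found in 2.55% of neurons (732), 0.945% of glia, 0.594% of hemocytes and 1.27% of fat body cells, at median depths of 2700, 2014, 2247 and 2426 UMIs in this order, so some Gad1+ neurons may carry it as background. Gad1+ neurons were higher for 2 of the 17 receptor genes that passed the filter on low counts, mAChR-B among them, and lower for none. Of all 7910 genes tested, 1.85% (146) were called higher and 152 lower. mAChR-B had 75.0, 32.3 and 151 CPM in Gad1+ neurons of the females and 70.0 and 74.6 CPM in those of the males, against 67.7, 19.4 and 82.1 CPM and 43.5 and 37.6 CPM in the matched neurons. It was higher in all 5 libraries, with a log2 fold change of 0.71 (SE 0.11, edgeR adjusted p = 0.0023).

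The other 15 genes did not pass. The median log2 fold change of the 17 was 0.19, where that of all genes tested was 0.005, and 13 of the 17 were above 0. GABAB-R3 had 17.5 ± 7.33 CPM in Gad1+ neurons and 11 ± 2.25 CPM in the matched ones (log2 0.62, SE 0.22, edgeR adjusted p = 0.17), and 5HTR_S3 18.7 ± 8.09 CPM and 25 ± 7.84 CPM (log2 -0.64, SE 0.21, edgeR adjusted p = 0.13). Without female replicate 2 or 3, or male replicate 1 or 2, 1 receptor gene was called, mAChR-B. With a mitochondrial limit of 20% no receptor gene was called, and mAChR-B had a log2 fold change of 0.62 with an edgeR adjusted p of 0.0501. Gad1+ neurons had a lower median mitochondrial share than the matched neurons in all 5 libraries (12% to 26.8% against 12.8% to 27.3%) and lower nSyb (log2 -0.43) and Syt1 (log2 -0.21), and the part of this in the result was not tested. Of the other transmitter genes, Th (log2 2.63) and Ddc (log2 1.28), a further enzyme of dopamine synthesis, were higher, and none of the 7 signalling genes tested was called.

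A VAChT UMI was found in 8.72% of neurons (2504), 2.43% of glia, 1.36% of hemocytes and 4.22% of fat body cells, so some VAChT+ neurons, too, may carry it as background. VAChT+ neurons were higher for 6 of the 25 receptor genes tested and lower for none. Of all 10134 genes tested, 3.54% (359) were called higher and 711 lower. mAChR-B had 75.7, 30.4 and 109 CPM in VAChT+ neurons of the females and 67.9 and 48.4 CPM in those of the males, against 49.5, 23.4 and 68.0 CPM and 44.6 and 32.9 CPM in the matched neurons. It was higher in all 5 libraries (log2 0.46, SE 0.06, edgeR adjusted p = 0.0004). The excess was smaller than the spread between libraries but had the same sign in each.

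GABAB-R2 had 23, 9.35 and 25.9 CPM in VAChT+ neurons of the females and 18.6 and 16.9 CPM in those of the males, against 17.9, 8.57 and 16.2 CPM and 12 and 9.81 CPM in the matched neurons (log2 0.47, SE 0.10, edgeR adjusted p = 0.0073). GABAB-R1 had 264, 250.2 and 198 CPM in the females and 243 and 235 CPM in the males, against 193, 235 and 150 CPM and 195 and 181 CPM (log2 0.19, SE 0.055, edgeR adjusted p = 0.043). Both were higher in all 5 libraries as unscaled CPM, R1 by a small amount, but with the scaling factors of the test they were higher in 4, since in female replicate 2 GABAB-R1 then had 277 CPM in VAChT+ neurons against 295 CPM in the matched ones, and GABAB-R2 10.3 against 10.8 CPM. GABAB-R3 had 17.3, 2.34 and 12.9 CPM in the females and 16.9 and 14.3 CPM in the males, against 14.6, 8.57 and 7.34 CPM and 9.38 and 9.81 CPM, higher in 4 of 5 libraries and lower in female replicate 2 (log2 0.51, SE 0.15, edgeR adjusted p = 0.046).

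mAChR-A_S3 had 35.4, 14 and 32.2 CPM in VAChT+ neurons of the females and 27.6 and 36.3 CPM in those of the males, against 28.6, 7.79 and 19.9 CPM and 22.6 and 25.7 CPM in the matched neurons (log2 0.34, SE 0.085, edgeR adjusted p = 0.023). It was higher in all 5 libraries. The median log2 fold change of the 25 genes was 0.19 and that of all genes tested 0.013, and 20 of the 25 were above 0.

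Without female replicate 3, which gave the most VAChT+ neurons (876), mAChR-B alone was called, and without male replicate 1 or male replicate 2 there were 3 calls each. Over all alternatives run, the highest edgeR adjusted p was 0.0072 for mAChR-B, 0.079 for GABAB-R2, 0.15 for GABAB-R1, 0.24 for GABAB-R3 and 0.46 for mAChR-A_S3. DESeq2 called GABAB-R1 and mAChR-B among the 9 receptor genes to which it gave an adjusted p. VAChT+ neurons had a lower median mitochondrial share than the matched neurons in all 5 libraries (12.5% to 26.8% against 13.7% to 28.6%), and brp was higher in them (log2 0.19), and the part of this was not tested. The signalling genes rut (log2 0.21) and Arr2 (log2 0.26) were higher, 2 of the 7 tested, and 5 of the other transmitter genes were lower, Dbh (log2 -2.72), Tdc2 (-2.12), Th (-1.95), Ddc (-1.22) and Gad1 (-1.17).

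Neurons with a UMI of Tdc2 or Th were fewer and gave no calls. Of 8 receptor genes tested in Tdc2+ neurons (230, 66.1% of them in cluster 22) edgeR called 0, with 2 at an unadjusted p under 0.05, and DESeq2 called 0, where edgeR called 2.64% of all genes in either direction. Octbeta3R had 111 ± 33.4 CPM in Tdc2+ neurons and 76.1 ± 17.3 CPM in the matched ones (log2 0.52, SE 0.19, 95% interval 0.15 to 0.89, edgeR adjusted p = 0.21), and mAChR-B 24.1 ± 26.5 CPM and 52.9 ± 24.4 CPM (log2 -0.70, SE 0.27, interval -1.23 to -0.18, edgeR adjusted p = 0.23). In Th+ neurons (302) edgeR called 0 of 10, with 2 at an unadjusted p under 0.05, and DESeq2 0, where edgeR called 0.4% of all genes in either direction. mAChR-A_S1 had 92.6 ± 42.7 CPM in Th+ neurons and 41.5 ± 13.7 CPM in the matched ones, higher in all 5 libraries (log2 0.77, SE 0.18, interval 0.43 to 1.11, edgeR adjusted p = 0.12). Median mitochondrial shares were lower in Th+ neurons than in the matched ones in all 5 libraries (10.2% to 25.9% against 13.5% to 29.9%), and their part in these values was not tested.

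**Figure D5:**
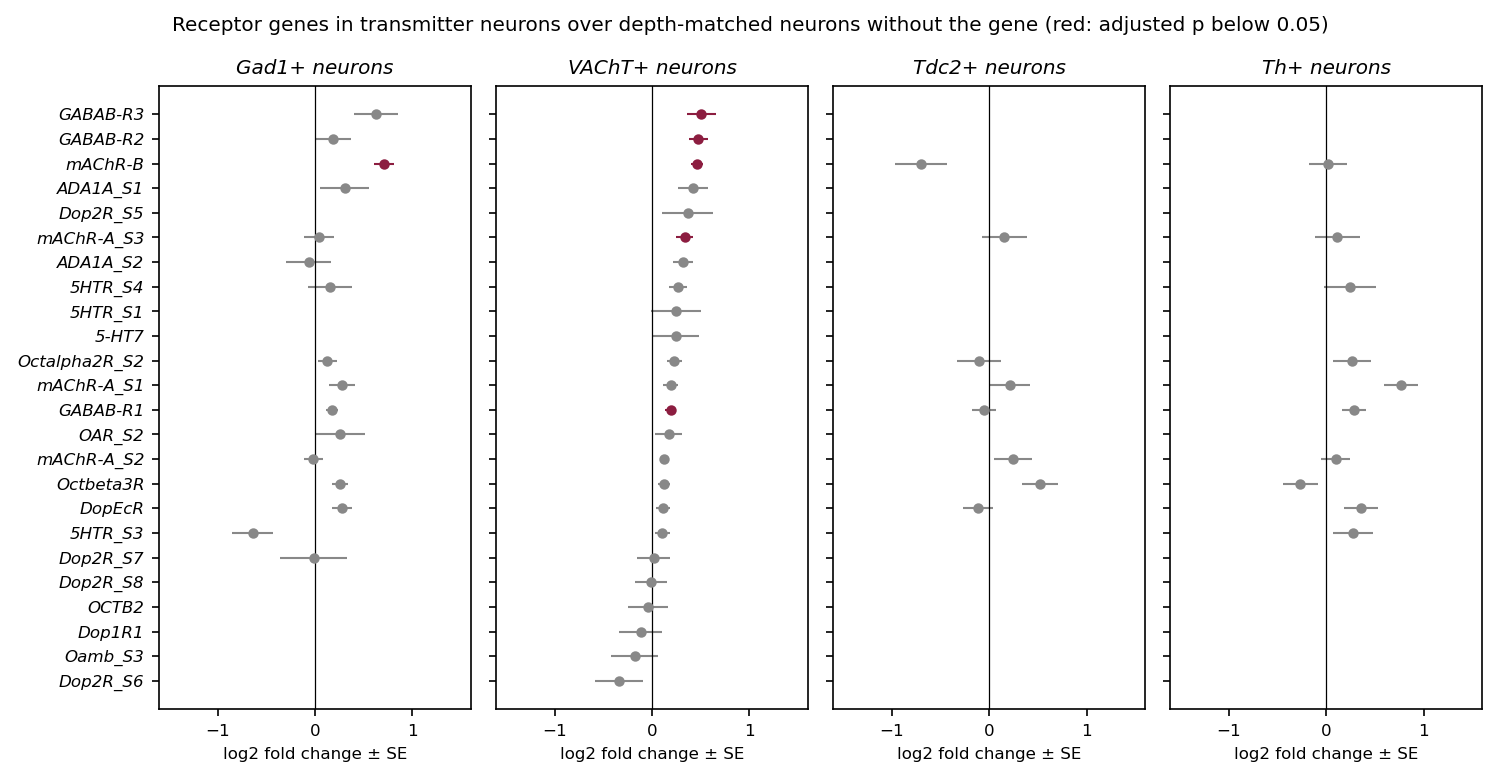
Log2 fold change ± SE (edgeR, 5 libraries) of receptor genes in neurons with a Gad1, VAChT, Tdc2 or Th UMI over depth-matched neurons without one, for genes that passed the filter on low counts in each comparison. Red points have an adjusted p below 0.05, 1 in Gad1+ and 5 in VAChT+ neurons, all above 0, and none in Tdc2+ or Th+ neurons.

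Between the sexes no receptor gene was called. Of 32 genes tested on the sums of all neurons, 3 female against 2 male libraries, edgeR called 0, with 0 at an unadjusted p under 0.05, and DESeq2 called 0, with 1, where edgeR called 0.0521% of all genes. The libraries of each sex are pools of different brains, so p-values measure the spread between pools. The difference with the smallest p was that of Octalpha2R_S2, with 48.6, 28.4 and 158 CPM in females and 47.0 and 34.5 CPM in males (log2 female over male 0.88, 95% interval -0.15 to 1.91), and it rested on female replicate 3. mAChR-A_S1 had 44.5, 35.5 and 51.7 CPM in females and 34.1 and 32.1 CPM in males (log2 0.39, interval -0.09 to 0.88). For GABAB-R1 the interval was -0.54 to 0.61, so differences within it are not excluded for that gene. The median SE of the 32 genes was 0.475, so larger differences could be missed in others. In simulated data for this comparison, 11% of log2 changes of 1 and 75% of those of 2 were recovered.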

How the data were processed

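Per the methods, the authors ran Cell Ranger 4.0.0 on the 3′ droplet reads with their own assembly and annotation. The deposited matrices hold whole UMI counts per gene and barcode for each library, with no normalization. No genome coordinates or sequences were used here. Cells with 500 to 60000 UMIs, at least 200 genes, a ratio of log genes to log UMIs of at least 0.7 and a mitochondrial share under 40% were kept. The study's cluster numbers, held for 1998 cells of female replicate 3, were carried to the others by label spreading (20 neighbours, 40 principal components of 2000 variable genes without the 40 receptor genes, libraries aligned by a Harmony-type correction). Doublets, the cells most like simulated doublets at the rate expected for each library's size (5.44%), were kept, and left out in an alternative. Neuron sums of a library held 11042621 to 31535792 UMIs, so that 3 UMIs correspond to 0.0951 to 0.272 CPM, and glia 194539 to 549890. Exact intervals on shares of cells, and floors, cover counting error only. Intervals on log2 fold changes come from the SE of edgeR's fit, which includes the spread between libraries. They use the normal distribution, which can make them too narrow for so few libraries.

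UMIs were summed per library and class or cluster and given as CPM, with 1 CPM added before log2 ratios. Class means used libraries with at least 20 cells. Levels over classes, clusters and pairs of genes were described without a test, since clusters come from the same cells. Pair ratios had 0.5 cells added to both counts. Comparisons of transmitter neurons and of the sexes used R 4.3.3 with edgeR 4.0.16 (filterByExpr, TMM, quasi-likelihood F test, Benjamini-Hochberg at 0.05) on all genes, and DESeq2 1.42.0 as an alternative. A member that passed filterByExpr may have done so through the group where it is high. edgeR was tested on simulated data, with 200 genes changed by 1 or 2 on the log2 scale in each comparison. It recovered 186 for Gad1, 196 for VAChT, 177 for Tdc2, 184 for Th and 86 for sex. False calls ran from 12 beside the 86 for sex to 18 beside the 196 for VAChT, and none was of wrong sign. In each comparison the false calls were a larger share of all calls than the limit of 0.05. Calls just under that limit are therefore uncertain. Apart from the changes, each gene had the same mean in all libraries, so differences in level between libraries were not simulated. For sex, 11% of the changes of 1 and 75% of those of 2 were recovered. Smaller changes, as were most of those given here for receptor genes, were not simulated. Clustering used scikit-learn 1.9.0 under Python 3.11.15, and all else pandas 2.3.3, scipy 1.17.1 and numpy 2.4.6.

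The 40 genes, the gene lists and the tests were chosen with earlier results of these data known. The values of 1 of the 40 genes are not reported here, and it is left out of the plots, while counts and sums over the genes include it. The shares of all genes and pairs set beside counts of receptor genes used the same limits, and those for clusters, pairs and genes with 10 UMIs in the other class were added after the data were seen. Values in every library were otherwise given for genes called by a test, for the 10 highest in neurons and for those not highest in neurons, and a cluster was named for a gene where the log2 ratio was above 1 in every library with at least 3 of its cells. The marker genes FASN1, ACC, AcCoAS, Mcad, Ahcy and AdenoK of fat body, the further glial markers SPARC_2 and Tsf1 and the hemocyte genes NATT4_1 and NATT4_2 were used to check classes. AcCoAS was at 2963 CPM, Ahcy at 3248 CPM and FASN1 at 29.7 CPM in fat body, against 142.8 CPM of FASN1 in neurons, and NATT4_1 and NATT4_2 were at 4.27 and 5.29 CPM in hemocytes, where they had 15 and 14 UMIs. Replicate numbers of females and males are not stated to pair libraries.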

Additional observations from a re-analysis of the deposited data

Results flagged for a closer look

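Of the 40 receptor levels in neurons, 7 had 1 library far from the other 4 by Dixon's criterion over the 5 libraries, treated as 1 group since each sex has too few. The limit used picks out about 1 in 20 such groups where values are normally distributed. The share of all genes picked out was not taken, so the 7 are not set against a background. Octalpha2R_S2 stood at 158 CPM in female replicate 3, with the others at 28.4 to 48.6 CPM, and 5HTR_S3 at 33.5 CPM in the same library, with the others at 19.8 to 23.6 CPM. ADRB1 stood at 1.90 CPM in female replicate 2, from 23 UMIs, with the others at 0.0317 to 0.0906 CPM. The other 4 rest on 1 to 7 UMIs in the library concerned. They were Dop2R_S1 at 0.0827 CPM in female replicate 2, Dop1R2 at 0.222 CPM in female replicate 3, and Oamb_S1 at 0.181 CPM and OctTyrR at 0.634 CPM in female replicate 1.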

How the results depend on the processing

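The number of Gad1 calls among receptor genes, 2, became 4 without the filter on low counts, 1 with DESeq2, 0 with a mitochondrial limit of 20%, 1 with at least 2 Gad1 UMIs and 6 against all neurons without Gad1, and 1 to 2 with 1 library left out. The VAChT calls, 6, became 2 with DESeq2 and 1 to 7 with 1 library left out. Tdc2 calls, 0, became 1, and Th calls, 0, became 2, against all neurons without the gene, and Th calls 2 without the filter on low counts. Under the other alternatives run these counts stayed within 1.5 times. mAChR-B kept its VAChT call in 11 of 11 alternatives (adjusted p up to 0.0072) and its Gad1 call in 10 of 11, whereas GABAB-R1 and mAChR-A_S3 kept theirs in 6 of 11 and GABAB-R3 in 6 of 10. The 5 raised combinations of gene and cluster were 6 to 9 with 1 library left out. Leaving a library out could not lose any of the 5, since the limit had to hold in every library. With a mitochondrial limit of 20%, 7 were raised, with 3 of the original 5 among them. By the vote of the 5 nearest annotated cells 5 were raised, again with 3 of the original 5. With doublets left out the same 5 were raised. Thinned to 1000 UMIs, a neuron had 0.743 receptor genes, since the depth is lower. The causes of the other changes were not tested. Female and male libraries share replicate numbers, but deviations of same-numbered libraries correlated at -0.065 and 0.127 (crossed 0.065 and -0.127), and with the replicate block 0 receptor genes were called between the sexes, as without it. Without overlap, 32 receptor genes were higher in neurons than in hemocytes and 16 higher than in glia. These counts became 23 and 13 with a mitochondrial limit of 20%, and 30 and 14 without the annotated cells. They were 32 and 17 with doublets left out, and 32 and 20 by the vote of the 5 nearest annotated cells. An alternative chosen after seeing the data left glial cluster 34 out, which gave 23 in place of 16 receptor genes above glia. Depth limits glia and hemocytes most, since 3 UMIs were 37.5 CPM in hemocytes of female replicate 1.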

Other observations

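Clusters 29 and 35, which the study puts in none of the 4 classes, had 169 and 115 cells. Their sums over the 40 receptor genes were 225 ± 114 CPM and 236 ± 202 CPM (SD, 5 libraries), from 71 and 96 UMIs, between those of hemocytes and glia.

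In fat body cells, 5 of the 8 receptor genes with at least 10 UMIs were above the range of the neuron markers relative to neurons (21.8% to 27%), namely 5HTR_S3, DopEcR, GABAB-R1, mAChR-A_S1 and OCTB2. The share of all genes above that range was not taken. OCTB2, an octopamine receptor, was the only 1 of the 40 whose mean was highest in fat body, with 20.4, 10.2, 8.10 and 9.56 CPM in female replicates 2 and 3 and male replicates 1 and 2, from 17 UMIs in all.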
